A study of Mus musculus with 6 samples.

Results

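Blood monocytes of the mouse fall into 2 main subsets, and 9 genes that mark them were followed in repair tissue from mice given clodronate or empty liposomes. The genes were chosen by name, with earlier results of these data known. The rows of the deposited expression table whose gene entry equals such a name were used. Ccr2, Ly6c2, Plac8, F10 and Ifitm6 are taken here as genes of classical monocytes. Ace, Nr4a1, Cx3cr1 and Itgal are taken as genes of patrolling monocytes. All 9 were found, each as a row of its own, among 23351 genes. The tissue was periosteum with quadriceps muscle from the surface of an injured bone of C57BL/6 mice, and RNA sequencing gave 3 libraries from mice injected with Empty-lip, taken here as empty liposomes, and 3 from mice injected with Clod-lip, taken as liposomes that carry clodronate. The labels give no dose, time, age or sex and no untreated group, so both groups share the injury and an injection of liposomes. Clodronate liposomes act on cells that take up particles and are not specific to monocytes. Values are FPKM, fragments counted per length of transcript and per total of mapped fragments. Whether each library stands for its own animal is not stated in the labels. The p-values below therefore reflect the spread between libraries, which may be technical.

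Classical monocytes carry high Ly6C on their surface, leave the bone marrow by way of the chemokine receptor CCR2 and enter injured tissue, where they can become macrophages. Patrolling monocytes carry little Ly6C and much CX3CR1, depend on the transcription factor NR4A1, and crawl along the inside of small vessels by the integrin LFA-1, whose alpha chain is the product of Itgal. Several of these genes are also used by other cells of this tissue. Ace is expressed by endothelium, Nr4a1 is an immediate early gene of many cells, skeletal muscle included, Cx3cr1 is also expressed by some tissue macrophages, and Itgal by lymphocytes and neutrophils. These examples are patrolling genes. Whether the values of the classical genes come from monocytes alone was not tested. In a bulk sample, fewer cells of a type and less RNA of a gene per cell cannot be told apart.

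Ly6c2 has a close relative next to it, Ly6c1, which is known from endothelium, and the coding sequences of both are shown because they decide what a Ly6c2 value can mean. In the GENCODE transcripts both coding sequences have 396 bases, differ at 9 positions and are 97.7% identical, with an unbroken identical run of 188 bases. The first 300 coding bases of each are given, with capitals at the 7 differing positions they hold.
Ly6c2: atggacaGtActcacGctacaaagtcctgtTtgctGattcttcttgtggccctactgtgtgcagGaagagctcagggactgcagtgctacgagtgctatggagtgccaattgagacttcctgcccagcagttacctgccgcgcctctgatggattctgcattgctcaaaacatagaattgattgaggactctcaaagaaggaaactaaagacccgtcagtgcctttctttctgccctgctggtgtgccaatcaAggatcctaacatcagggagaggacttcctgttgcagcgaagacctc
Ly6c1: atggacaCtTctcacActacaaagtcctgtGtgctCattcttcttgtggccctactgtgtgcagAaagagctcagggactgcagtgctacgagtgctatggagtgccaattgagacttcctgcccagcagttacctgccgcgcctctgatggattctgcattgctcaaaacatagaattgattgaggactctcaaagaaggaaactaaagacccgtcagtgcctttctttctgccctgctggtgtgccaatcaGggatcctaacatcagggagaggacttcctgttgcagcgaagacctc
Of the 773 windows of 50 bases in the Ly6c2 transcript, 252, or 32.6%, also occur in a Ly6c1 transcript. How the authors divided reads that match both genes is not given in the sources used here, so the Ly6c2 and Ly6c1 values are uncertain to that extent. Ifitm6, which also belongs to a family of similar genes, shared 0 of 614 such windows with Ifitm1, Ifitm2 and Ifitm3.

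The promoters of Nr4a1, which had the highest log2 change of the 9 genes, and of the near copies Ly6c2 and Ly6c1, whose values went different ways, are shown too. The windows come from RefSeq on GRCm38.p6 and hold 300 bases around the gene start. For Nr4a1, at chr15:101266596-101266895 on the plus strand, the capitals mark TGACG read on the opposite strand, the core of the cAMP response element. For Ly6c2, at chr15:75111922-75112221 on the minus strand, and for Ly6c1, at chr15:75048788-75049087 on the minus strand, capitals mark GAGGAAGT, a sequence of the kind bound by ETS factors.
Nr4a1: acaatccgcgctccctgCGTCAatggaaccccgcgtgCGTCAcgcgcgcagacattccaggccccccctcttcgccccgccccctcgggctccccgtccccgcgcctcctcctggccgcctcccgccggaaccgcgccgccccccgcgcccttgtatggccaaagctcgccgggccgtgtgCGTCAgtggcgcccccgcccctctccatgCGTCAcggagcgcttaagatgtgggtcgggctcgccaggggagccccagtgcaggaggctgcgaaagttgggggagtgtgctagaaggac
Ly6c2: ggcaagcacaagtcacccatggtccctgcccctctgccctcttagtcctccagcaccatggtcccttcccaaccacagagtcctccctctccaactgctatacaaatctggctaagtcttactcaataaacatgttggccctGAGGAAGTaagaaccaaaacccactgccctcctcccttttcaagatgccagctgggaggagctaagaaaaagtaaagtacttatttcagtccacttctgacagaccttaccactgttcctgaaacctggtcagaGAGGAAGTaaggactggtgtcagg
Ly6c1: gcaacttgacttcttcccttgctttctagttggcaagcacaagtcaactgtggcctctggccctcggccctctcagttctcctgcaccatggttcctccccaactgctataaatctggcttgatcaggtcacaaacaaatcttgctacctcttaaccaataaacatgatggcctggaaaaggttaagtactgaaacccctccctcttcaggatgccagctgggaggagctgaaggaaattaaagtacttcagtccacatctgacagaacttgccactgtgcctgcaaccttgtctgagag
The Nr4a1 window held 4 matches to TGACG, and 0.231% of 32851 promoter windows held at least 4 matches on either strand. The Ly6c2 window held 2 matches to GAGGAAGT, as did 0.0609% of windows, and the Ly6c1 window shown held 0. That window ends within the letters of such a match, and a second Ly6c1 window, at chr15:75048614-75048913 on the minus strand, held 1. These are matches of letters and not binding sites.

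Promoter windows were given for 8 of the 9 genes, not for Itgal, and 11 patterns were searched on both strands, a choice made with the expression values known. Ly6c2, Plac8 and Ace had a second window each, and a gene was taken to match if any of its windows did. The percentages below count single windows. The interferon response pattern, GAAA followed by any 2 bases and again by GAAA, is held by 3.44% of all windows and matched in 0 of the 8 genes. TGACGTCA (1.79%), TGANTCA (7.81%) and AAAGGTCA (1.51%) also matched in 0. GGAA followed by any 2 bases and GAAA (2.72%) matched in Ifitm6, TTGCNNAA (10.8%) in Plac8, and TGACG (20.8%) in Nr4a1. GAGGAAGT (3.20%) matched in Ly6c2, and the shorter GAGGAA (28.3%), which lies within it, matched in Ly6c2, Plac8 and Ace. GGGA followed by any 4 bases and CC (20.7%) matched in Ly6c2, F10 and Ace, and CACCC (57.5%) in 6 of the 8 genes. The Ccr2 window matched none of the 11 patterns.

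The libraries had between 15041 and 15294 genes above 0, and apart from microRNA and small nucleolar RNA genes their FPKM summed to between 561441 and 606658. Of the whole FPKM sum, such small RNAs took from 32.6% to 47.7% in the Empty-lip libraries and Clod-lip 1, and 0.185% and 0.0938% in Clod-lip 2 and 3. No read numbers were at hand for this work. The steps between low FPKM values placed the relative depth of the libraries between 0.994 and 1.13 times that of Empty-lip 1, if no further scaling was applied. Only ratios near equal depth were searched, so a large difference in depth could not have been found. Clod-lip 2 stood apart from the other Clod-lip libraries for myeloid genes. Its 10 matched neutrophil markers summed to 3438 FPKM, against 905 and 1260 FPKM in Clod-lip 1 and 3. In Empty-lip 1, 2 and 3 that sum was 1322, 606 and 522 FPKM. The 10 macrophage markers of Clod-lip 2 summed to 2578 FPKM, against 1787 and 1551 FPKM in Clod-lip 1 and 3. Results are therefore also given without Clod-lip 2. Since that library was singled out by high myeloid values, lower Clod-lip values of myeloid genes without it follow in part from the choice.

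Differences were tested with limma on log2(FPKM + 1) over the 13408 genes whose mean reached 0.5 FPKM, all 9 genes among them, and passed at an adjusted p (Benjamini-Hochberg) of 0.05 or less. In Clod-lip, Ccr2 and Plac8 fell, 3 other classical genes had lower means without passing, and none of the 4 patrolling genes passed. Of all genes tested, 4.05% passed, with 1.21% lower in Clod-lip and 2.84% higher. Among the classical genes 2 of 5 passed as lower, with a median log2 change of -1.34, against a median of -0.01 over all genes tested. Among the patrolling genes 0 of 4 passed, with a median of -0.08 that joins 2 negative and 2 positive changes. At an unadjusted p under 0.05 there were 6 of the 9 genes, against 21.8% of all genes tested. The authors' deposited table called 7 of the 9, which are 3 classical and 4 patrolling genes, at a background of 12.2% of the genes they tested, 5.41% lower and 6.82% higher in Clod-lip. The groups did not overlap for 4 of the 9 genes, against 27.4% of all genes tested.

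**Figure D1:**
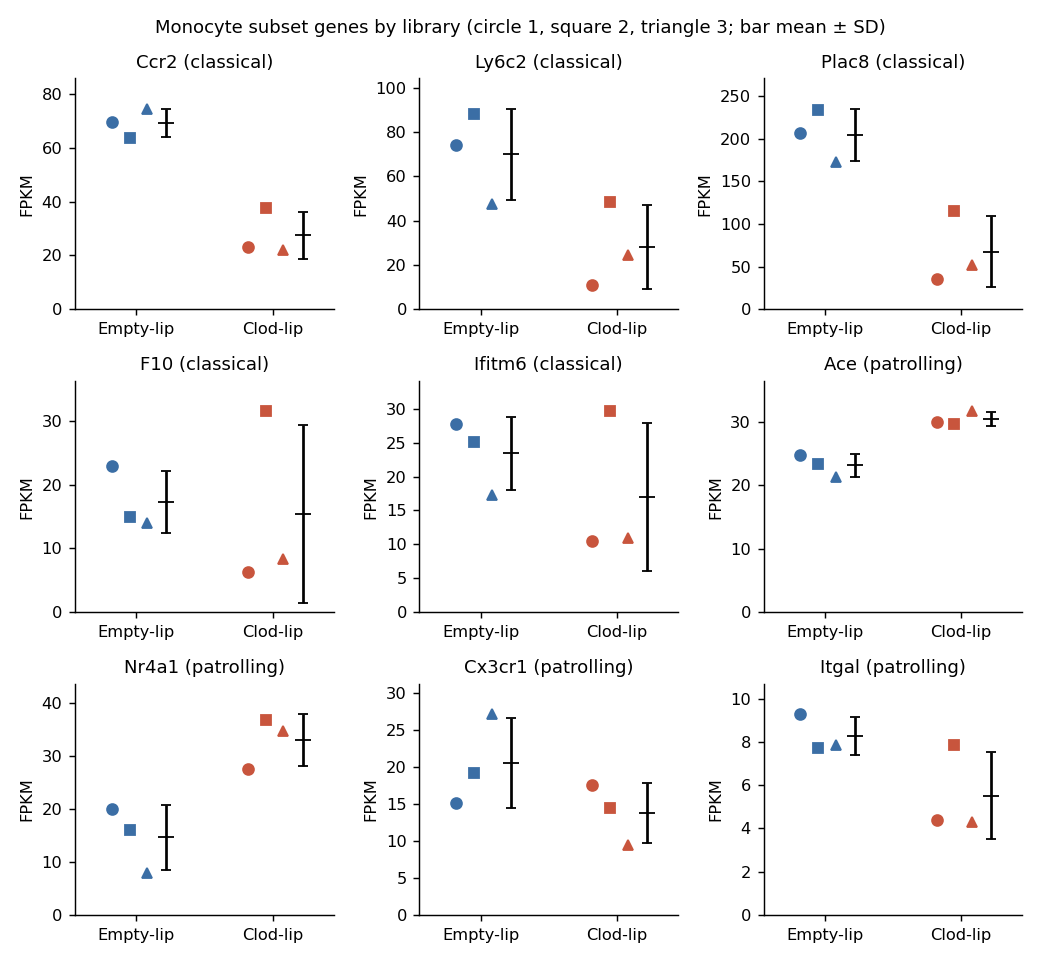
FPKM (y axis, starting at 0) of each of the 9 genes in the 3 Empty-lip (blue) and 3 Clod-lip (red) libraries, with the mean ± SD as a black bar. The groups are apart for Ccr2, Plac8, Ace and Nr4a1, and Clod-lip 2 (square) is the highest Clod-lip library for all 5 classical genes.

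Ccr2 encodes the receptor through which classical monocytes follow CCL2, and it gave the smallest p of the 9 genes. It stood at 69.6, 63.9 and 74.6 FPKM in Empty-lip 1, 2 and 3 and at 23.0, 37.6 and 21.9 FPKM in Clod-lip 1, 2 and 3. Every Clod-lip library lay below every Empty-lip library, which holds for 13.4% of the genes tested. The Empty-lip mean of 69.4 ± 5.37 FPKM and the Clod-lip mean of 27.5 ± 8.77 FPKM (SD, n = 3 in both groups) gave a 2.52-fold difference and a log2 change of -1.34 ± 0.19 (SE), with a 95% interval from -1.79 to -0.90 and a limma adjusted p of 0.0176. The exact two-sided permutation p was 0.1, the smallest that 3 against 3 libraries allow. On mm10 the gene is at chr9:124102182-124109140, and its mean lay above that of 85.8% of the genes tested.

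Plac8 encodes a small cysteine-rich protein that is abundant in classical monocytes, and it was the most highly expressed of the 9 genes in every library. It stood at 207, 234 and 173 FPKM in Empty-lip 1, 2 and 3 and at 35.7, 115 and 51.5 FPKM in Clod-lip 1, 2 and 3. The groups did not overlap. The mean fell from 205 ± 31.0 to 67.3 ± 41.8 FPKM, a 3.04-fold difference, with a log2 change of -1.75 ± 0.37, a 95% interval from -2.62 to -0.89 and a limma adjusted p of 0.0469. With the replicate number as a block the limma adjusted p was 0.0501. On mm10 the gene is at chr5:100553732-100572205.

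Ly6c2 encodes Ly6C, the surface antigen that separates the subsets. It stood at 74.1, 88.3 and 47.5 FPKM in Empty-lip 1, 2 and 3 and at 11.0, 48.7 and 24.3 FPKM in Clod-lip 1, 2 and 3. The groups overlapped, since Clod-lip 2 lay just above Empty-lip 3. The log2 change was -1.48 ± 0.47, with a 95% interval from -2.58 to -0.38 and a limma adjusted p of 0.127, so that the estimate is as large as that of Ccr2 but did not pass. The exact two-sided permutation p was 0.2. The authors' deposited table gives Ly6c2 a q of 0.000928. Without Clod-lip 2 the log2 change was -1.98 with a limma adjusted p of 0.0185, and without Clod-lip 1 it was -0.96 with a limma adjusted p of 0.233. Without each of the other libraries it lay between -1.73 and -1.29 and did not pass.

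Ly6c1, the near copy of Ly6c2 shown above, did not share this difference in its values. It stood at 111, 117 and 99.6 FPKM in Empty-lip 1, 2 and 3 and at 110, 155 and 124 FPKM in Clod-lip 1, 2 and 3. Its log2 change was 0.23 ± 0.13 with a limma adjusted p of 0.354. The ratio of Ly6c2 to Ly6c1 within a library was 0.666, 0.756 and 0.476 in Empty-lip and 0.10, 0.314 and 0.196 in Clod-lip. Unlike Ly6c2 alone, the ratio was lower in every Clod-lip library than in every Empty-lip library. On mm10 Ly6c2 is at chr15:75108160-75111949 and Ly6c1 at chr15:75044017-75048837.

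F10 and Ifitm6, the other classical genes, were low in Clod-lip 1 and 3 and high in Clod-lip 2. F10, which encodes coagulation factor X, stood at 22.9, 14.9 and 14.0 FPKM in Empty-lip 1, 2 and 3 and at 6.24, 31.5 and 8.34 FPKM in Clod-lip 1, 2 and 3. Ifitm6, a member of the interferon induced transmembrane family, stood at 27.8, 25.1 and 17.3 FPKM in Empty-lip 1, 2 and 3 and at 10.4, 29.6 and 11.0 FPKM in Clod-lip 1, 2 and 3. For both genes Clod-lip 2 was the highest of the 6 libraries, and the other Clod-lip libraries were the lowest.

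Neither F10 nor Ifitm6 passed. The log2 change of F10 was -0.46 ± 0.51, with a 95% interval from -1.66 to 0.74 (limma adjusted p = 0.667), and that of Ifitm6 was -0.57 ± 0.37, with a 95% interval from -1.44 to 0.29 (limma adjusted p = 0.426). Without Clod-lip 2 the log2 changes were -1.12 for F10 (limma adjusted p = 0.0258) and -1.04 for Ifitm6 (limma adjusted p = 0.0198). Without Clod-lip 1 they were -0.037 for F10 (limma adjusted p = 0.979) and -0.33 for Ifitm6 (limma adjusted p = 0.714), and without Clod-lip 3 they were -0.22 (limma adjusted p = 0.897) and -0.36 (limma adjusted p = 0.724). Without Empty-lip 1 the log2 change of F10 was -0.25 (limma adjusted p = 0.865). The exact two-sided permutation p over the 6 libraries was 0.9 for F10 and 0.4 for Ifitm6. On mm10 F10 is at chr8:13037307-13056676 and Ifitm6 at chr7:141015811-141016892. The part of the neutrophil markers, whose sum was also highest in Clod-lip 2, in these values was not tested.

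**Figure D2:**
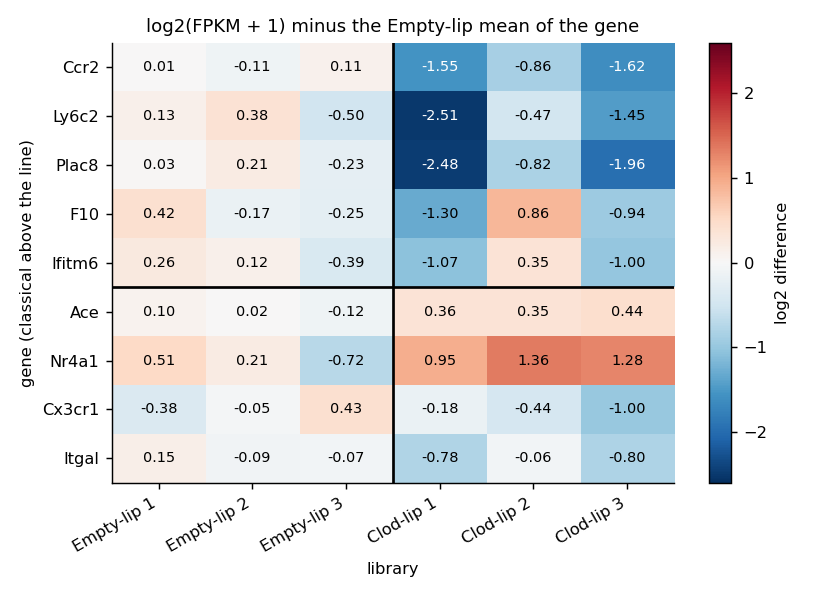
Each cell gives log2(FPKM + 1) of a gene (rows) in a library (columns) minus the mean of the gene in Empty-lip, blue for lower and red for higher. The median of the 5 classical genes was -1.55, -0.47 and -1.45 in Clod-lip 1, 2 and 3, and that of the 4 patrolling genes 0.09, 0.14 and -0.18.

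Of the patrolling genes, Nr4a1 and Ace lay higher in every Clod-lip library than in every Empty-lip library, which holds for 14.0% of the genes tested. Nr4a1 encodes the nuclear receptor that patrolling monocytes need for their survival. It stood at 20.0, 16.0 and 7.99 FPKM in Empty-lip 1, 2 and 3 and at 27.6, 36.8 and 34.8 FPKM in Clod-lip 1, 2 and 3. Its means were 14.7 ± 6.11 and 33.0 ± 4.84 FPKM, 2.25-fold higher in Clod-lip. The log2 change was 1.20 ± 0.29, with a 95% interval from 0.52 to 1.87 and a limma adjusted p of 0.0655, and did not pass. The change lay above that of 99.6% of the genes tested. The authors' deposited table gives Nr4a1 a q of 0.000928. With FPKM rescaled to an equal sum per library without small RNA genes, the adjusted p of Nr4a1 was 0.0454 by limma, at a log2 change of 1.20. On mm10 the gene is at chr15:101266845-101274794.

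The relatives of Nr4a1 were much lower and did not pass. Nr4a2 stood at 1.73, 1.18 and 1.33 FPKM in Empty-lip 1, 2 and 3 and at 1.52, 2.08 and 2.59 FPKM in Clod-lip 1, 2 and 3. Nr4a3 stood at 1.73, 1.62 and 1.54 FPKM in Empty-lip 1, 2 and 3 and at 0.726, 3.49 and 3.15 FPKM in Clod-lip 1, 2 and 3. Of 11 other NR4A and immediate early genes 1 passed, as higher, with a median log2 change over the 11 of 0.27. The gene that rose was Fosb, an AP-1 subunit, from 0.910, 0.852 and 1.29 FPKM to 2.49, 3.21 and 2.73 FPKM (log2 0.92 ± 0.16, limma adjusted p = 0.0285).

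Contractile genes of skeletal muscle were also higher in every Clod-lip library. Of 14 tested, 13 passed as higher, and their FPKM summed to 17491, 14710 and 12680 in Empty-lip 1, 2 and 3 and to 28333, 27721 and 30044 in Clod-lip 1, 2 and 3. Within Empty-lip the libraries had the same order for this sum as for Nr4a1, and within Clod-lip they did not, since the sum was highest in Clod-lip 3 and Nr4a1 in Clod-lip 2. The part of muscle fibre RNA in the Nr4a1 values was not tested.

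Ace encodes the angiotensin converting enzyme, and its log2 change had the smallest SE of the 9 genes. It stood at 24.9, 23.4 and 21.3 FPKM in Empty-lip 1, 2 and 3 and at 30.1, 29.7 and 31.7 FPKM in Clod-lip 1, 2 and 3. The groups did not overlap. The log2 change was 0.38 ± 0.09, with a 95% interval from 0.18 to 0.59 and a limma adjusted p of 0.0544, and did not pass. It passed when only genes with a mean of 5 FPKM or more were tested (limma adjusted p = 0.0430), with quantile normalization (limma adjusted p = 0.0468) and without Clod-lip 2 (limma adjusted p = 0.0449). Without each of the other libraries its limma adjusted p lay between 0.0792 and 0.188. The authors' deposited table gives Ace a q of 0.0399. On mm10 the gene is at chr11:105967944-105989964.

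Endothelial markers had the same sign as Ace. Of 8 tested, 0 passed and all 8 had a positive log2 change, with a median of 0.25. Their FPKM summed to 226 to 286 in Empty-lip and to 288 to 320 in Clod-lip, and none was listed at 0 in any library. Pecam1 and Cdh5, junction proteins of endothelium, had log2 changes of 0.22 and 0.17. The part of endothelial RNA in the Ace values was not tested. Of the renin and angiotensin genes, 3 of 5 were tested and 0 passed. Agt, the precursor of angiotensin, stood at 0.989, 1.85 and 2.64 FPKM in Empty-lip 1, 2 and 3 and at 6.15, 3.98 and 3.96 FPKM in Clod-lip 1, 2 and 3, with a log2 change of 1.03 ± 0.25 and a limma adjusted p of 0.0659. Agtr1a, the main angiotensin receptor, had a log2 change of 0.49 (limma adjusted p = 0.102).

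Cx3cr1 and Itgal, the other patrolling genes, had negative log2 changes. Cx3cr1 encodes the receptor for the membrane chemokine fractalkine. It stood at 15.1, 19.2 and 27.1 FPKM in Empty-lip 1, 2 and 3 and at 17.5, 14.4 and 9.49 FPKM in Clod-lip 1, 2 and 3. The groups overlapped, with Clod-lip 1 above Empty-lip 1. The log2 change was -0.54 ± 0.26, with a 95% interval from -1.13 to 0.06 and a limma adjusted p of 0.271. Leaving out Empty-lip 3 gave -0.32, and leaving out Clod-lip 3 gave -0.31. Among the 9 genes Cx3cr1 was the only one that did not come past the threshold under any of the 15 alternatives tried. The authors' deposited table gives Cx3cr1 a q of 0.00503. On mm10 the gene is at chr9:120048682-120068296.

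Itgal was the lowest of the 9 genes in every library. It stood at 9.27, 7.71 and 7.83 FPKM in Empty-lip 1, 2 and 3 and at 4.40, 7.84 and 4.30 FPKM in Clod-lip 1, 2 and 3. Clod-lip 2 lay within the range of Empty-lip and the other Clod-lip libraries below it. The log2 change was -0.55 ± 0.21, with a 95% interval from -1.03 to -0.07 and a limma adjusted p of 0.180, and without Clod-lip 2 it was -0.79 (limma adjusted p = 0.0146). On mm10 the gene is at chr7:127296259-127335137. The authors' deposited table gives Itgal a q of 0.00677. Markers of T, B and NK cells, which also use LFA-1, summed over 10 genes from 6.46 to 11.5 FPKM in Empty-lip and from 7.52 to 13.6 FPKM in Clod-lip, of which Cd3e, Cd8a and Klrb1c were listed at 0 in some libraries.

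Itgb2, the beta chain that pairs with the product of Itgal, stood at 138, 150 and 120 FPKM in Empty-lip 1, 2 and 3 and at 73.4, 114 and 77.8 FPKM in Clod-lip 1, 2 and 3. The groups did not overlap, and the log2 change of -0.64 ± 0.17 had a limma adjusted p of 0.0835. The ratio of Itgal to Itgb2 was 0.0613 ± 0.00873 (SD, n = 3) in Empty-lip and 0.0613 ± 0.00673 in Clod-lip. Of 5 integrin partners and ligands of LFA-1, 0 passed, with a median log2 change of -0.52. Itgam, the alpha chain of the integrin Mac-1, had a log2 change of -0.78 (limma adjusted p = 0.154).

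**Figure D3:**
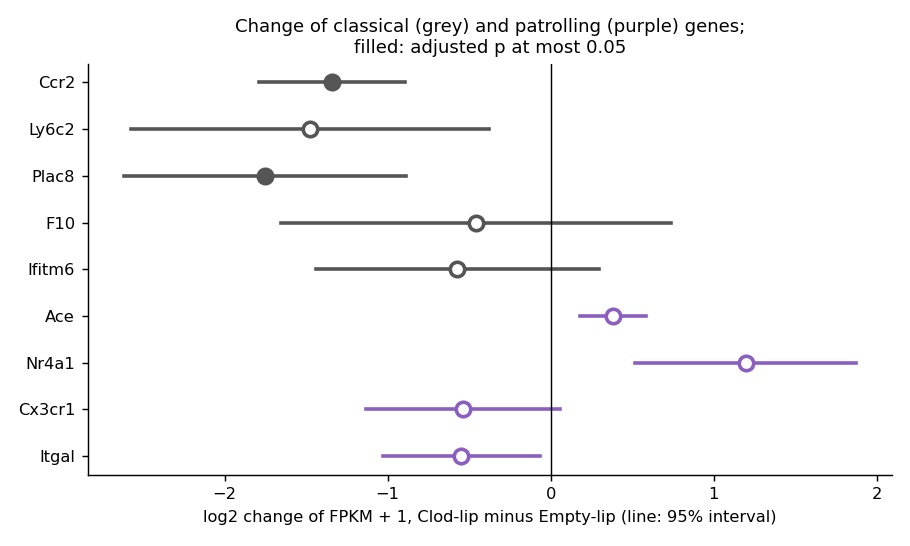
Log2 change of FPKM + 1, Clod-lip minus Empty-lip, for each gene (points) with its 95% interval (lines), classical genes in grey and patrolling genes in purple. Filled points, for Ccr2 and Plac8, passed at a limma adjusted p of 0.05 or less.

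The order of the 9 genes by mean level differed between the groups. In Empty-lip Plac8, at 205 FPKM, was followed by Ly6c2 at 70.0 and Ccr2 at 69.4 FPKM, which do not differ beyond their spread, then by Ifitm6, Ace, Cx3cr1, F10 and Nr4a1, between 23.4 and 14.7 FPKM and with overlapping values, and by Itgal at 8.27 FPKM. In Clod-lip Plac8 at 67.3 FPKM was followed by Nr4a1, Ace, Ly6c2 and Ccr2, between 33.0 and 27.5 FPKM and with overlapping values. Then came Ifitm6, F10 and Cx3cr1, between 17.0 and 13.8 FPKM. By mean, Nr4a1 moved from place 8 to place 2. Its places in single libraries were 7, 7 and 8 in Empty-lip 1, 2 and 3 and 3, 4 and 2 in Clod-lip 1, 2 and 3. The 5 classical genes together summed to 402, 427 and 326 FPKM in Empty-lip 1, 2 and 3 and to 86.4, 262 and 117 FPKM in Clod-lip 1, 2 and 3, and the 4 patrolling genes from 64.2 to 69.2 FPKM in Empty-lip and from 79.5 to 88.7 FPKM in Clod-lip. The patrolling sum joins higher Clod-lip means of Nr4a1 (14.7 to 33.0 FPKM) and Ace (23.2 to 30.5 FPKM) with lower ones. Those were Cx3cr1 (20.5 to 13.8 FPKM) and Itgal (8.27 to 5.51 FPKM).

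Set against Csf1r, the receptor that monocytes and macrophages share, Ccr2 was also lower in Clod-lip. Csf1r itself stood at 150, 147 and 149 FPKM in Empty-lip 1, 2 and 3 and at 105, 149 and 90.2 FPKM in Clod-lip 1, 2 and 3, and its log2 change of -0.40 did not pass (limma adjusted p = 0.218). The ratio of Ccr2 to Csf1r within a library was 0.464, 0.436 and 0.502 in Empty-lip and 0.219, 0.252 and 0.243 in Clod-lip. Clod-lip 2, in which Ccr2 was the highest of its group, did not stand apart in this ratio. The ratio of Ccr2 to Emr1, the file's symbol for the gene of the macrophage antigen F4/80, was 0.514 ± 0.0590 in Empty-lip and 0.260 ± 0.0177 in Clod-lip.

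The ratio of Plac8 to Csf1r was 1.38, 1.60 and 1.16 in Empty-lip and 0.340, 0.768 and 0.571 in Clod-lip, again without overlap. That of Cx3cr1 to Csf1r was 0.138 ± 0.0413 and 0.123 ± 0.0383, a difference smaller than the spread between libraries. That of Itgal to Csf1r was 0.0618, 0.0526 and 0.0527 in Empty-lip and 0.0418, 0.0524 and 0.0477 in Clod-lip, with means of 0.0557 ± 0.00527 and 0.0473 ± 0.00532. The groups did not overlap, though Clod-lip 2 lay close below Empty-lip 2, and the difference was larger than either SD. Ly6c2 to Csf1r overlapped between the groups, at 0.319 in Empty-lip 3 and 0.326 in Clod-lip 2. F10 to Csf1r also overlapped, at 0.116 ± 0.0315 in Empty-lip and 0.121 ± 0.0796 in Clod-lip. Ifitm6 to Csf1r did so too, at 0.158 ± 0.0362 and 0.140 ± 0.0519. Higher in every Clod-lip library were Ace to Csf1r (0.156 ± 0.0116 and 0.279 ± 0.0766) and Nr4a1 to Csf1r (0.0988 ± 0.0407 and 0.298 ± 0.0762). The ratio of Ccr2 to Cx3cr1 was 4.61, 3.33 and 2.75 in Empty-lip and 1.31, 2.61 and 2.31 in Clod-lip, apart by the small gap between Empty-lip 3 and Clod-lip 2.

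**Figure D4:**
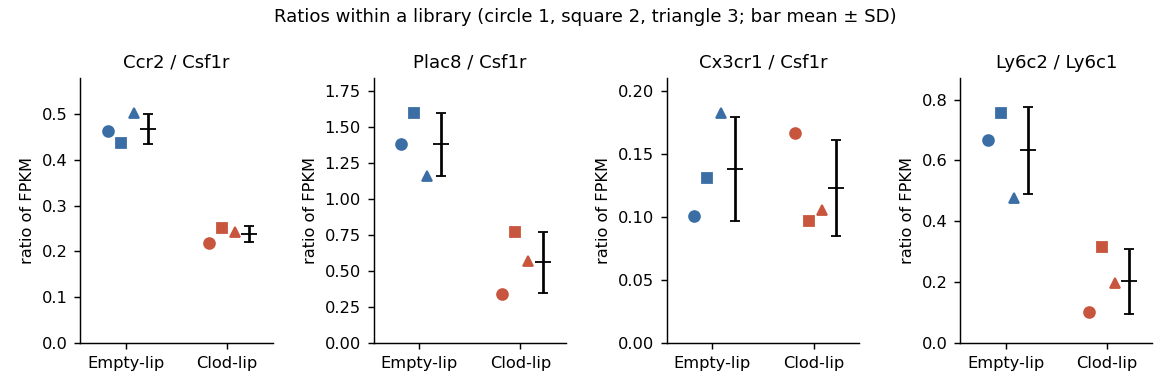
Ratio of the FPKM of 2 genes within a library (y axis, starting at 0) for Empty-lip (blue) and Clod-lip (red), with the mean ± SD as a black bar. Ccr2 to Csf1r lies between 0.436 and 0.502 in Empty-lip and between 0.219 and 0.252 in Clod-lip, while Cx3cr1 to Csf1r overlaps between the groups.

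Ligands of CCR2 fell in Clod-lip, as their receptor did. Of 5 ligands of CCR2 and CX3CR1, 3 passed, all as lower. Ccl12, a ligand of CCR2 in the mouse, fell from 67.7, 94.1 and 71.2 FPKM to 17.7, 35.7 and 21.4 FPKM (log2 -1.65 ± 0.25, limma adjusted p = 0.0191). Ccl2, the main attractant of monocytes, fell from 211, 270 and 245 FPKM to 118, 157 and 135 FPKM (log2 -0.82, limma adjusted p = 0.0230). The values of Ccl7 fell from 168, 258 and 177 FPKM to 94.6, 127 and 76.9 FPKM (log2 -1.01, limma adjusted p = 0.0475). Ccl8 stood at 434, 383 and 231 FPKM in Empty-lip 1, 2 and 3 and at 101, 382 and 112 FPKM in Clod-lip 1, 2 and 3, and did not pass. Cx3cl1, which encodes fractalkine, the ligand of CX3CR1, did not pass either, at 3.43, 5.48 and 4.02 FPKM in Empty-lip and 4.27, 4.67 and 6.53 FPKM in Clod-lip, a log2 change of 0.21 ± 0.19 (limma adjusted p = 0.583).

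Other genes known from the subsets gave few calls. Of 12 other classical genes 1 passed, as lower, with a median log2 change over the 12 of -0.25. The gene that fell was Ms4a4c, a membrane protein gene whose family holds similar copies, from 45.8, 44.4 and 40.7 FPKM to 5.41, 18.2 and 10.4 FPKM (log2 -1.99 ± 0.34, limma adjusted p = 0.0280). Of 12 other patrolling genes tested out of 13, 0 passed, with a median of -0.32 and 10 negative signs. Gngt2, a G protein subunit, stood at 84.6, 80.5 and 66.5 FPKM in Empty-lip and 39.4, 60.5 and 51.4 FPKM in Clod-lip, with a log2 change of -0.62 and a limma adjusted p of 0.0789. Cebpb, a transcription factor that patrolling monocytes need, had a log2 change of -0.02. Of the 12, 4 were lower in Clod-lip without overlap of the groups and 0 were higher. Over all genes tested, 13.4% were lower and 14.0% were higher without overlap. Among the 4 lower ones was Fcgr4, named after its values were seen, whose change of -1.40 was the largest of the 12. It did not pass (limma adjusted p = 0.108). Empty-lip 1, 2 and 3 had 61.5, 40.9 and 46.2 FPKM of Fcgr4, and Clod-lip 1, 2 and 3 had 12.7, 39.0 and 11.2 FPKM. Clod-lip 2 thus lay close below Empty-lip 2.

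Of 6 transcription factors of monocytes, 1 rose, 0 fell and 5 did not pass. Klf4, which is needed for monocyte differentiation and is also expressed by endothelium, rose from 12.0, 13.4 and 12.5 FPKM to 22.2, 21.6 and 22.1 FPKM (log2 0.76 ± 0.08, limma adjusted p = 0.0123). Irf8 and Spi1, which direct the monocyte lineage, had log2 changes of -0.59 (limma adjusted p = 0.0696) and -0.53 (limma adjusted p = 0.208), and were named after their values were seen. Spi1 is listed in the file as Sfpi1.

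Relatives and partners of F10 and Ifitm6 gave 0 calls. Of the Ly6 and Ifitm relatives, 7 of 10 were tested and 0 passed, with Ifitm3 at 1004, 994 and 833 FPKM in Empty-lip and 445, 772 and 475 FPKM in Clod-lip. The log2 change was -0.78 for Ifitm3 (limma adjusted p = 0.0785) and -0.29 for Ifitm2. Of the 6 coagulation partners of F10, 4 were tested and 0 passed, with log2 changes of 0.29 for F3, tissue factor, and -0.15 for Tfpi, its inhibitor. Proc, which encodes protein C, was listed at 0 in all libraries.

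Interferon response genes fell in Clod-lip, and their mean was lowered the least in Clod-lip 2, as was that of the classical genes. Of 10 tested, 8 passed as lower, with a median log2 change of -1.52. Averaged over the list, log2(FPKM + 1) minus its Empty-lip mean was -1.95, -0.79 and -1.71 in Clod-lip 1, 2 and 3, against means of -1.78, -0.19 and -1.39 for the 5 classical genes. The pattern was not particular to these lists. In Clod-lip 1, 2 and 3 the mean was -0.72, -0.14 and -0.83 for the macrophage markers. For the other patrolling genes it was -0.61, 0.18 and -0.51. Oas1a, an antiviral enzyme induced by interferon, fell from 31.5, 32.4 and 28.0 FPKM to 7.96, 11.6 and 8.21 FPKM (log2 -1.64, limma adjusted p = 0.00602). The part of the interferon response in the values of the classical genes was not tested.

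Among macrophage markers 3 of 10 fell, 0 rose and 7 did not pass, with a median log2 change of -0.51 and sums from 2747 to 2938 FPKM in Empty-lip and from 1551 to 2578 FPKM in Clod-lip. The 3 were Fcgr1, an Fc receptor that classical monocytes also carry, Mrc1, the mannose receptor, and Mertk, a receptor for apoptotic cells, with log2 changes of -1.55, -0.85 and -0.39. Among 10 neutrophil markers 5 rose, 0 fell and 5 did not pass, with a median of 1.34. The 5 that rose were Ngp, Camp, Ltf, Elane and Mpo, which encode granule proteins. Of those that did not pass, S100a8, S100a9 and Retnlg had log2 changes of 0.95, 1.06 and 1.18. The receptor genes Csf3r and Cxcr2 had log2 changes of -0.27 and -0.0005. Of 5 dendritic cell markers tested out of 6, 0 passed, with 4 positive signs and a median log2 change of 0.13. Zbtb46, a transcription factor of dendritic cells, had a log2 change of 0.13 (limma adjusted p = 0.745). The 1 negative sign was that of Cd209a, a lectin of dendritic cells that derive from monocytes, which stood at 3.78, 6.61 and 8.29 FPKM in Empty-lip and 2.61, 2.28 and 2.98 FPKM in Clod-lip, a log2 change of -0.95 (limma adjusted p = 0.0723).

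As a description, the genes whose pattern was most like that of Ccr2 and of Cx3cr1 were taken from the 9467 genes whose mean reached 5 FPKM, over the same 6 libraries. For Ccr2 they were Mcfd2, Fam126a, Lmnb1, Apoc2 and Mfsd1. Of these Apoc2, an apolipoprotein gene, changed by a similar size, from 48.7, 42.8 and 57.9 FPKM to 17.3, 28.8 and 16.1 FPKM (log2 -1.26, limma adjusted p = 0.0280). For Cx3cr1 they were Ints10, Rps3a1, Sept2, Eef1a1 and Ckb, of which 0 passed. Likeness was the Pearson correlation of log2(FPKM + 1), which ran from 0.993 to 0.996 for the genes named with Ccr2 and from 0.973 to 0.980 for those named with Cx3cr1.

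Leaving out single libraries kept the sign of all 9 log2 changes and moved the calls. The number of classical genes that passed was 5 without Clod-lip 2 and 0 without any other single library. Clod-lip 2 had been singled out by its high myeloid values. Over all 13408 genes tested, 1392 passed without Clod-lip 2, 782 of them lower, against 543 and 162 with all 6 libraries. Without any other single library between 2 and 269 passed. Without Clod-lip 2 the log2 change of Ccr2 was -1.58 (limma adjusted p = 0.00103) and that of Plac8 was -2.22 (limma adjusted p = 0.00234). Without each of the other libraries Ccr2 stayed between -1.40 and -1.21, with limma adjusted p between 0.0503 and 0.0883, and Plac8 between -1.87 and -1.39, with limma adjusted p between 0.112 and 0.178. Of the patrolling genes Itgal and Ace passed without Clod-lip 2, in opposite directions, and none passed without any other single library.

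**Figure D5:**
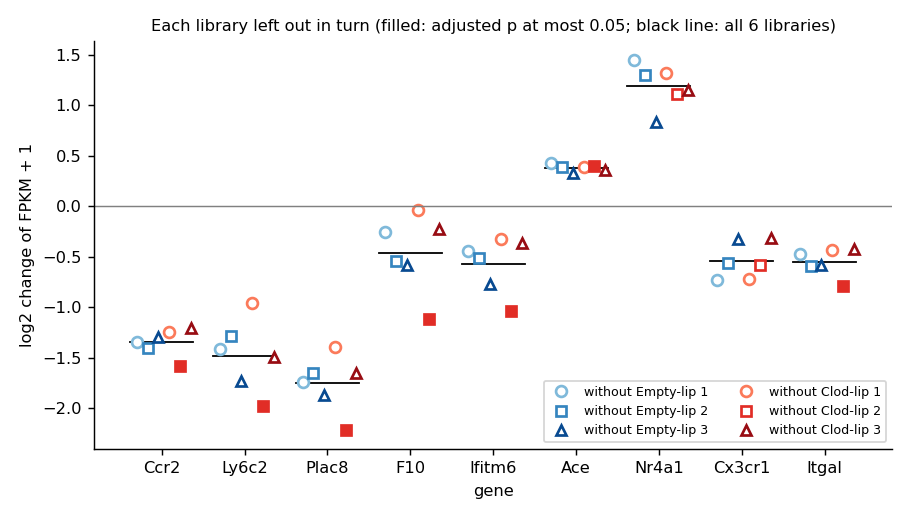
Log2 change of FPKM + 1 for each gene with each library left out in turn (symbols) and with all 6 libraries (black lines), filled where the limma adjusted p was 0.05 or less. The signs do not change, and without Clod-lip 2 (red squares) all 5 classical genes, Ace and Itgal are filled. In that setting 1392 of the 13408 genes tested passed, against 543 with all 6 libraries.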

How the data were processed

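RNA of 6 samples was sequenced, and titles put 3 in each group. The authors deposited FPKM per sample with group means, and p-values and q-values of their own comparison. TopHat and mm10 are named per the submitters' processing notes, without version; the tool that made the values is not given in the sources used here. FPKM are not counts, so no count test was run, and depth in reads is unknown. A blank line of the table (1 in all) was left out.

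The FPKM were tested with limma 3.58.1 (R 4.3.3) as log2(FPKM + 1), the prior variance following a trend, for genes averaging 0.5 FPKM or more; changes of low genes are understated on this scale. The procedure was tested on simulated data. Single values were compared with exact permutation tests. The 9 genes and the lists (149 of 151 entries matched, older symbols included) were chosen with earlier results of these data known. Named genes were the 9 and their direct ligands, partners and relatives. From most lists up to 4 passing genes by smallest p were named, or the 2 of highest mean where none passed. Exceptions were the neutrophil markers, of which all matched were named, and the contractile genes, of which none was. Of the T, B and NK cell markers only genes listed at 0 in some libraries and Cd79a were named. Genes listed at 0 and genes used for ratios or likeness were also named, and other exceptions are marked. Positions are those of the deposited file. Alternatives were a replicate block, leaving out each library, pseudocounts of 0.1 and 0.5, no filter or a filter at 5 FPKM, quantile normalization, an equal sum without small RNA genes, limma without trend, and leaving out Empty-lip 1 with Clod-lip 2. No library pair was identical (correlations from 0.950 to 0.977).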

Additional observations from a re-analysis of the deposited data

How the results depend on the processing

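Of all genes tested, 543 passed, and the number ran from 2 to 1392 with single libraries left out: 269, 2 and 85 without Empty-lip 1, 2 and 3, and 30, 1392 and 16 without Clod-lip 1, 2 and 3. It was 170 with the replicate number as a block, 312 without a filter, 284 by limma without trend and 1101 without Empty-lip 1 and Clod-lip 2 together. Classical genes passing numbered 2, and ran from 0 to 5 with single libraries left out; 1, Ccr2, passed with the replicate block, with no filter and by limma without trend, and 4 without Empty-lip 1 and Clod-lip 2 together. Patrolling genes passing numbered 0, and ran from 0 to 2 with single libraries left out; 1 passed with a mean of at least 5 FPKM and with quantile normalization, Ace in both, 1 with an equal sum without small RNA genes, Nr4a1, and 1 without Empty-lip 1 and Clod-lip 2 together, Itgal. The cause of these shifts was not tested. No log2 change of the 9 genes reversed under the 15 alternatives, with Ccr2 between -1.58 and -1.21. Deviations of same-numbered libraries correlated at -0.08, -0.04 and 0.08, and those of libraries with other numbers between -0.11 and 0.14. These few values cannot decide whether replicate numbers pair the libraries. Depth could not be given in reads, so counting error is not separated from the spread between libraries.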
